A study of Mus musculus with 9 samples.

Results

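Cyclin-dependent kinase (CDK) inhibitors and genes around the tumor suppressor p53 were followed in cells of the mouse mammary gland, by every probe set that the array annotation assigns to the gene alone. The genes are Cdkn1a, Cdkn1b, Cdkn1c, Cdkn2a, Cdkn2b, Cdkn2c, Trp53, Mdm2, Ccng1 and Trp53inp1. Of these 10 genes, 9 had such a probe set, with 16 probe sets in all, of 18194 genes and 34958 probe sets of a single gene on the array. For Trp53, the gene of p53 itself, no probe set was assigned to it alone, so its RNA was not analysed here. RNA of 3 kinds of sample was hybridized to Affymetrix arrays, with 3 biological replicas (A, B and C) for each of them. The first were organoids from yMaSCs (yMaSC organoids), that is, from luminal differentiated (LD) cells that had been transduced with rtTA and a lentiviral vector for doxycycline-inducible wild-type YAP, kept in doxycycline for 7 days, and then grown as organoids in its absence. The second were organoids from MaSCs (MaSC organoids), that is, from mammary stem cells, and had not been transduced with YAP. The MaSCs were a sorted basal fraction enriched for stem cells (low EpCAM, high CD49f and CD61 present), and not a pure population. The third were LD cells, sorted by FACS for high EpCAM, low CD49f and no CD61 among cells negative for a cocktail of lineage antibodies, whose RNA was taken without culture. The study's mice were virgin C57BL/6J animals of 8 to 12 weeks unless another line was specified. Both organoids were embedded in Matrigel under a medium with EGF, bFGF, heparin, noggin and R-Spondin1, which the LD cells never saw, so culture and cell kind cannot be told apart in any comparison with LD cells. The inducing YAP was a viral transgene that depended on doxycycline, and how many clones or animals stand behind an organoid line was not given in the sources used here.

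CDKs drive a cell through its division cycle when bound to a cyclin, and 2 families of small proteins hold them back. The Cip/Kip family (p21 from Cdkn1a, p27 from Cdkn1b and p57 from Cdkn1c) binds complexes of cyclins and CDKs. The INK4 family (p16 from Cdkn2a, p15 from Cdkn2b and p18 from Cdkn2c) binds CDK4 and CDK6 and so keeps the retinoblastoma proteins active, which hold E2F factors silent. Cdkn2a also encodes Arf, from another first exon and another reading frame, which inhibits the ubiquitin ligase Mdm2. Mdm2 marks p53 for degradation and is itself a transcriptional target of p53. Cdkn1a, Ccng1 and Trp53inp1 are further targets: Ccng1 encodes cyclin G1, which recruits a phosphatase to Mdm2, and Trp53inp1 encodes a nuclear stress protein that promotes phosphorylation of p53. In the mammary gland p27 has been studied as a brake on proliferation of luminal cells, and p18 as a regulator of luminal progenitors.

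The promoters of 4 of these genes are shown: those of Cdkn1a, Mdm2 and Ccng1, targets of p53 whose RNAs went in different directions, and those of Cdkn2a, whose probe set does not separate its 2 products. Windows of 300 bases (250 before an annotated start of transcription and 50 from it on) were taken from RefSeq for build GRCm38.p6, and 11 windows were found for 8 of the 10 genes. Cdkn1c and Trp53inp1 had none. In the sequences below, printed 5′ to 3′ on the strand of the gene, capitals mark every match on either strand to one of 3 motifs: the p53 half-site consensus, the GC box GGGCGG, and the E2F sites TTTCCCGC, TTTGGCGC, TTTCGCGC and TTTGCCGC. Positions count from the start of transcription, with -1 directly before it, and give the first base of the match. No match to one motif overlapped a match to another in these windows.
Cdkn1a, first start, chr17:29090729-29091028, plus strand: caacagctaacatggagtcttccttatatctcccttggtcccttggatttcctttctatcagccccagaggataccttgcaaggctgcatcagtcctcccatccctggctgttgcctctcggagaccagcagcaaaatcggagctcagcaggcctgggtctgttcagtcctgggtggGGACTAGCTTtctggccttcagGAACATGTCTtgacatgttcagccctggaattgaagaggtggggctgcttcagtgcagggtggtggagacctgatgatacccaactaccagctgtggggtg
Cdkn1a, start 2790 bases downstream of the first, chr17:29093519-29093818, plus strand: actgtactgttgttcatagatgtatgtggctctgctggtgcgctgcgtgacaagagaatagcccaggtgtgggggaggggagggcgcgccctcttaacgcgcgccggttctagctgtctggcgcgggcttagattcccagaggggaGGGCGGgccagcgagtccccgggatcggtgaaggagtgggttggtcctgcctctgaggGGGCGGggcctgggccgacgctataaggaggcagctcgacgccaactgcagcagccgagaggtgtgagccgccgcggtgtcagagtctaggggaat
Mdm2, chr10:117710709-117711008, minus strand: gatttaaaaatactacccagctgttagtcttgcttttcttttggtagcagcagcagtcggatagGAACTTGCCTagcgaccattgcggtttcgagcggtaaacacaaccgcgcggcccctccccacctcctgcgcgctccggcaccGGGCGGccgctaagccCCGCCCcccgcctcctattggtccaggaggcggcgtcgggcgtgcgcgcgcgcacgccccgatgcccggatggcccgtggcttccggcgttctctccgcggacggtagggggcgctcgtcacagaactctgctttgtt
Ccng1, chr11:40755237-40755536, minus strand: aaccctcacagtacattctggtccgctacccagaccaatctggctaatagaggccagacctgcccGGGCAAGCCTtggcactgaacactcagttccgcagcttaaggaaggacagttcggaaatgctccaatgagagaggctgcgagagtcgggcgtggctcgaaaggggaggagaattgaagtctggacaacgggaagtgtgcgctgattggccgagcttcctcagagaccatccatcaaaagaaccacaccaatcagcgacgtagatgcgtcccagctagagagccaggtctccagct
Cdkn2a, start of Arf, chr4:89294570-89294869, minus strand: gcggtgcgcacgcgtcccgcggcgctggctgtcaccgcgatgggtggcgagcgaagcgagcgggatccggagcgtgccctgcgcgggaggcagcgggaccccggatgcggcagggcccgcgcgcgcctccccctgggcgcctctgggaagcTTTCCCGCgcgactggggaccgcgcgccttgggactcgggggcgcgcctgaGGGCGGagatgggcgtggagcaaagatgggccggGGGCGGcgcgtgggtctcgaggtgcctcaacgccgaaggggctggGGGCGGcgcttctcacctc
Cdkn2a, start of p16, 12427 bases downstream of that of Arf, chr4:89282143-89282442, minus strand: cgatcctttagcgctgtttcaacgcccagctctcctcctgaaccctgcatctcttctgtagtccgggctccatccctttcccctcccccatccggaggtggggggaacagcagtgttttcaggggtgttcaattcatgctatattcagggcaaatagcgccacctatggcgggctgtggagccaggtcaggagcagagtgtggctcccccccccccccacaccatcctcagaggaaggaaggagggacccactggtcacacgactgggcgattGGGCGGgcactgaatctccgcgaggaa

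The p53 half-site was present in the upstream window of Cdkn1a at -73 and -51, in that of Mdm2 at -186 and in that of Ccng1 at -185. Trp53 also held one at -75, which makes 4 of the 11 windows of these genes with a half-site, beside 8.36% of the 32851 windows of all genes. A GC box was present in 7 of the 11 windows (35.7% of all windows), among them the downstream start of Cdkn1a and both starts of Cdkn2a. An E2F site was present in 1 of the 11 windows (2.26% of all), that of Arf at -99. A match is a description of these letters and not evidence that a factor binds there.

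Values below are log2 expression values that the authors computed by robust multi-array averaging (RMA). The lower quartile of all probe sets lay between 3.47 and 3.59 in the 9 arrays and the upper quartile between 7.39 and 7.59. Where a group lies near the lower quartile, its level is a bound and a difference from it is a lower limit. Differences come with their standard error (SE) from limma's linear model of the 3 groups over all probe sets, and a probe set was called where its p, adjusted by the method of Benjamini and Hochberg across all 34958, was under 0.05. A gene with several probe sets is given by the one with the highest mean, with the others beside it. Some arrays stood apart from the rest of their group. LD cells B did so in markers of fat and endothelial cells. The fat cell gene Fabp4 was at 10.92 there, beside 4.20 and 3.70 in LD cells A and C. Both organoids C did so in genes of dividing cells and in the mean of basal markers. Counts of the 9 genes are thus also given without these arrays, as are counts of other gene lists that moved by over 1.5 times.

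Against LD cells, organoids had less RNA of Cdkn1a, Mdm2 and Trp53inp1 and more of Cdkn1b, Cdkn2a, Cdkn2b, Cdkn2c and Ccng1. Cdkn1c did not pass the test. This held for organoids from yMaSCs and for organoids from MaSCs alike, with 5 genes higher, 3 lower and 1 not called of 9 in each comparison. By probe set, 8 were higher, 7 lower and 1 not called of 16 in each. Over all probe sets, 19.4% were called higher and 15.4% lower in organoids from yMaSCs, and 19.9% were called higher and 16% lower in organoids from MaSCs. These shares include probe sets of low signal, where fewer were called. With only the probe sets above the median fitted, 9178 were called in yMaSC organoids, against 12149 with all. In MaSC organoids 9443 were called, against 12545 with all. Both comparisons use the same LD arrays. The median log2 difference of the 16 probe sets was 0.66 in yMaSC organoids, beside -0.02 over all probe sets. In MaSC organoids it was 0.58, beside -0.03 over all probe sets. Both medians fall in the gap between Cdkn1c and the least raised probe set, of Ccng1. With 7 of the 16 lower, they do not describe a common rise. With 1 probe set a gene, the median of the 9 genes was 1.12 in yMaSC organoids and 0.97 in MaSC organoids. The genes were not drawn at random from the array, and these shares are given as a description. In whole samples of mixed cells, fewer cells of a type and less RNA per cell cannot be told apart.

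**Figure D1:**
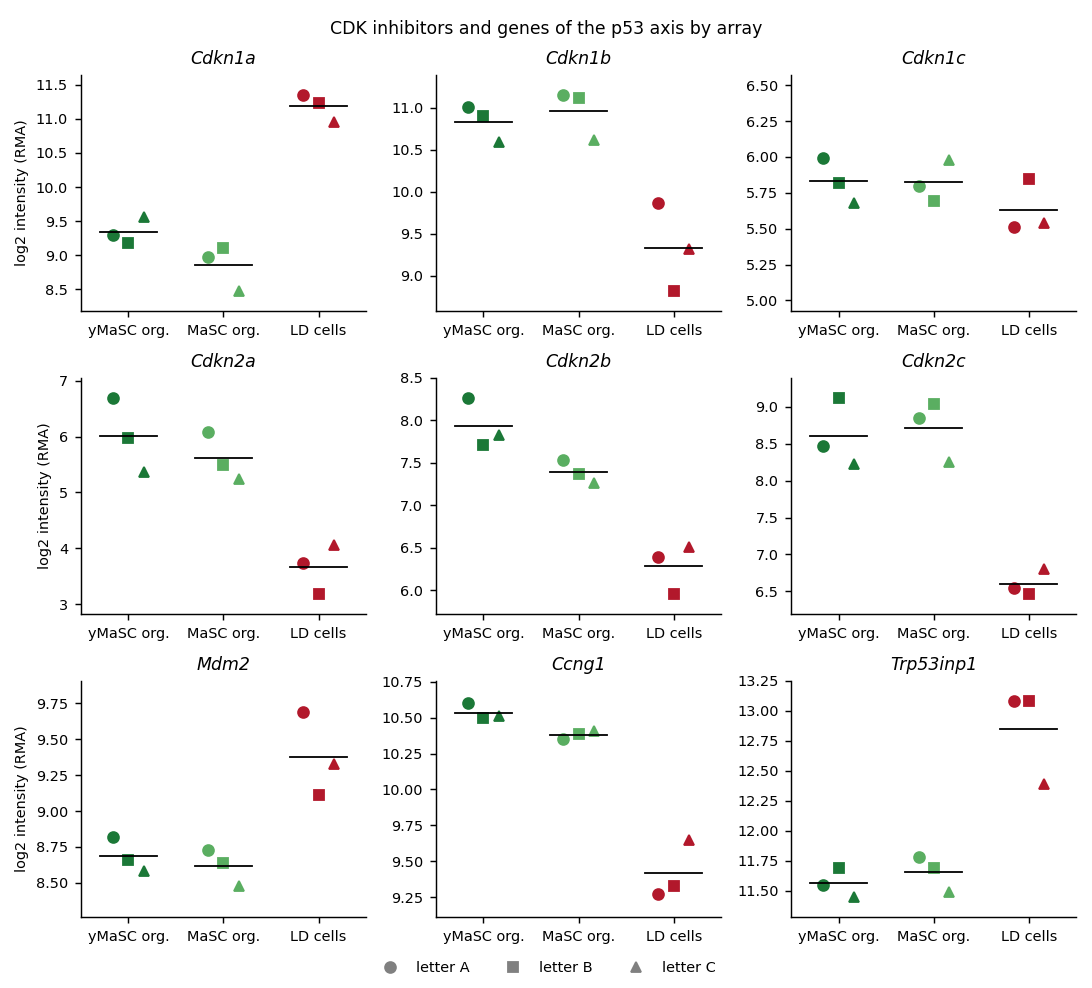
Log2 expression (RMA) of the 9 measured genes by array, with organoids from yMaSCs and from MaSCs left of LD cells, symbols for the letters and a line at each group's mean. The vertical scale differs between panels and does not start at 0. Cdkn1a, Mdm2 and Trp53inp1 lie highest in LD cells, 5 genes lie lowest there, and the 3 groups overlap for Cdkn1c.

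Among the Cip/Kip genes, Cdkn1a and Cdkn1b moved in opposite directions. Cdkn1a (chr17:29090979-29100722), which encodes the p53-inducible inhibitor p21, measured 9.29, 9.18 and 9.56 in organoids from yMaSCs A, B and C and 8.97, 9.11 and 8.48 in organoids from MaSCs, against 11.35, 11.24 and 10.96 in LD cells. All 6 organoid arrays lay below all LD arrays. Cdkn1a was 3.58-fold lower in organoids from yMaSCs (log2 difference -1.84 ± 0.19 SE, adjusted p = 0.000124) and 5.03-fold lower in organoids from MaSCs (-2.33 ± 0.19, adjusted p = 3.5e-05). The other probe set of Cdkn1a read 8.68 in each of the organoids from yMaSCs and 8.13, 8.36 and 7.54 in organoids from MaSCs, against 10.58, 10.73 and 10.46 in LD cells, with log2 differences of -1.91 in yMaSC organoids and -2.58 in MaSC organoids. The windows of both Cdkn1a starts, of which the upstream one holds the half-sites, belong to this gene, and these probe sets do not tell which start was used.

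Cdkn1b (chr6:134920401-134925525), the gene of p27, measured 11.01, 10.90 and 10.59 in organoids from yMaSCs and 11.15, 11.12 and 10.61 in organoids from MaSCs, against 9.86, 8.82 and 9.31 in LD cells. The lowest organoid array, 10.59, lay above the highest LD array, 9.86. In organoids from yMaSCs Cdkn1b was 2.83-fold higher (1.50 ± 0.26, adjusted p = 0.00222), and in those from MaSCs it was 3.10-fold higher (1.63 ± 0.26, adjusted p = 0.00137). Its dimmer probe set moved the same way, by 1.26 in yMaSC organoids and 1.16 in MaSC organoids on the log2 scale. Within each kind of organoid the letter C array was the lowest on both probe sets. Cdkn1c (chr7:143458339-143461059), the gene of p57, was between 5.51 and 5.99 in all 9 arrays and the groups overlapped, with differences of 0.20 ± 0.14 in organoids from yMaSCs (adjusted p = 0.310) and 0.19 ± 0.14 in organoids from MaSCs (adjusted p = 0.321). The 95% interval ran from -0.12 to 0.51 in yMaSC organoids and from -0.12 to 0.50 in MaSC organoids.

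All 3 INK4 genes among the members were higher in organoids. Cdkn2a (chr4:89274473-89294619) measured 6.69, 5.98 and 5.37 in organoids from yMaSCs and 6.08, 5.50 and 5.25 in organoids from MaSCs, against 3.73, 3.19 and 4.06 in LD cells. Neither kind of organoid overlapped with LD cells, and the LD values lie around the lower quartile of the arrays, so the differences of 2.35 ± 0.36 in organoids from yMaSCs (adjusted p = 0.0011) and 1.95 ± 0.36 in organoids from MaSCs (adjusted p = 0.00285) are lower limits. The probe set does not separate RNA of p16 from that of Arf, whose starts are the 2 windows shown above.

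Cdkn2b (chr4:89306289-89311032), the neighbor of Cdkn2a and the gene of p15, measured 8.26, 7.71 and 7.82 in organoids from yMaSCs and 7.53, 7.37 and 7.26 in organoids from MaSCs, against 6.39, 5.96 and 6.51 in LD cells. In organoids from yMaSCs it was 3.12-fold higher (1.64 ± 0.19, adjusted p = 0.000219), and in those from MaSCs it was 2.14-fold higher (1.10 ± 0.19, adjusted p = 0.00184). Here the 3 groups were fully separate, in the order LD cells, organoids from MaSCs, organoids from yMaSCs. Cdkn2c (chr4:109660876-109666756), the gene of p18, measured 8.47, 9.12 and 8.23 in organoids from yMaSCs and 8.85, 9.04 and 8.26 in organoids from MaSCs, against 6.54, 6.47 and 6.81 in LD cells. In organoids from yMaSCs it was 4.0-fold higher (2.0 ± 0.26, adjusted p = 0.000475), and in those from MaSCs it was 4.32-fold higher (2.11 ± 0.26, adjusted p = 0.000338), without overlap with LD cells.

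The genes of the p53 axis went in different directions. Mdm2 (chr10:117688875-117710758) measured 8.82, 8.66 and 8.58 in organoids from yMaSCs and 8.73, 8.64 and 8.48 in organoids from MaSCs, against 9.69, 9.11 and 9.33 in LD cells. The differences were the smallest among the called genes, -0.69 ± 0.16 in organoids from yMaSCs (adjusted p = 0.00822) and -0.76 ± 0.16 in organoids from MaSCs (adjusted p = 0.0049). The other 2 probe sets of Mdm2 were also called lower in both comparisons, at -0.63 in yMaSC organoids and -0.73 in MaSC organoids for the second, and at -0.43 in yMaSC organoids and -0.39 in MaSC organoids for the dimmest, which lies near the lower quartile in every array. Without LD cells A the second was not called (adjusted p = 0.0914 in yMaSC organoids and 0.0536 in MaSC organoids). Nor was the dimmest (0.0746 in yMaSC organoids and 0.103 in MaSC organoids). Leaving out some other arrays also lost calls of these probe sets (adjusted p up to 0.129).

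Ccng1 (chr11:40748552-40755309) went the other way. It measured 10.60, 10.50 and 10.51 in organoids from yMaSCs and 10.35, 10.39 and 10.41 in organoids from MaSCs, against 9.27, 9.33 and 9.65 in LD cells. In organoids from yMaSCs it was 2.17-fold higher (1.12 ± 0.12, adjusted p = 0.000135), and in those from MaSCs it was 1.95-fold higher (0.97 ± 0.12, adjusted p = 0.00028), and its other 2 probe sets gave larger differences, between 1.08 and 1.49. Cdkn1a, Mdm2 and Ccng1 each hold a p53 half-site in a window shown above, and of these Cdkn1a and Mdm2 were lower and Ccng1 was higher in organoids.

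Trp53inp1 (chr4:11156441-11174379) measured 11.55, 11.69 and 11.45 in organoids from yMaSCs and 11.78, 11.69 and 11.49 in organoids from MaSCs, against 13.08, 13.08 and 12.39 in LD cells. It was 2.44-fold lower in organoids from yMaSCs (-1.29 ± 0.19, adjusted p = 0.000907) and 2.29-fold lower in organoids from MaSCs (-1.20 ± 0.19, adjusted p = 0.00129). Its second probe set showed larger differences of -1.88 in yMaSC organoids and -1.86 in MaSC organoids. Replica C was the lowest LD array on both probe sets and still lay above every organoid array.

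**Figure D2:**
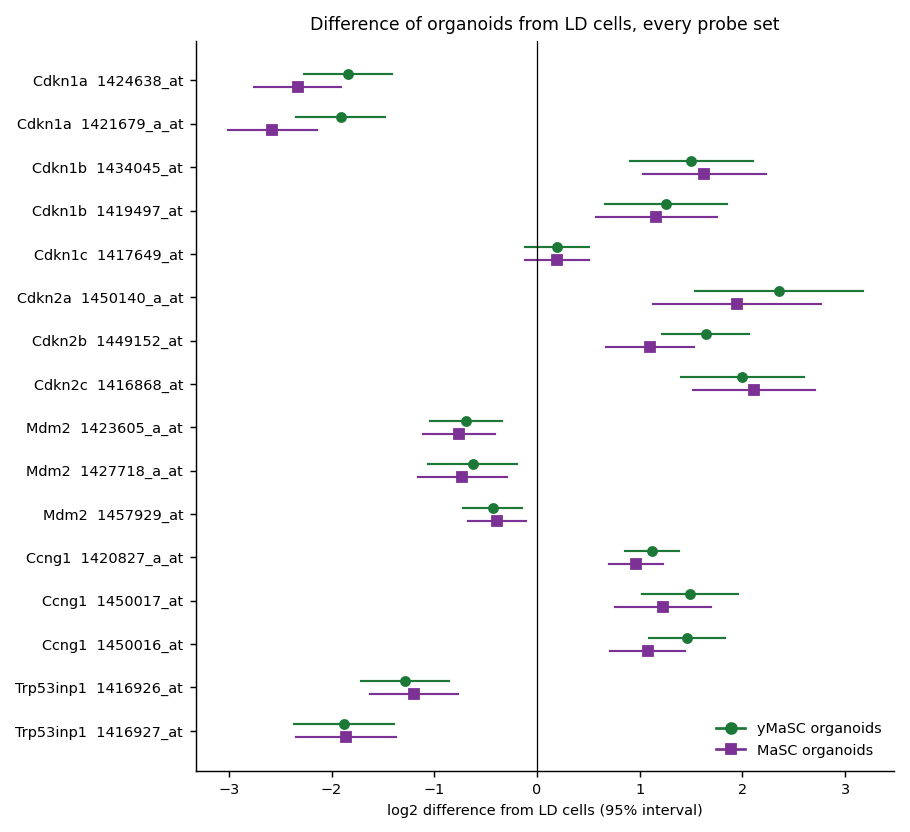
Log2 difference from LD cells for all 16 probe sets, with 95% intervals from limma, for organoids from yMaSCs (circles) above organoids from MaSCs (squares). The probe sets of a gene lie on the same side of 0, and only the intervals of Cdkn1c reach 0.

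Between organoids from yMaSCs and organoids from MaSCs 0 of the 9 genes and 0% of all probe sets were called by limma. An unadjusted p under 0.05 was found for 2 of the 9 genes and for 225 of all 34958 probe sets. The lowest adjusted p was 1. The log2 differences of the 9 genes ran from -0.13 for Cdkn1b to 0.54 for Cdkn2b, and for 8 of them the 95% interval lay within 1 log2 of 0. The exception was Cdkn2a, at 0.40 with an interval from -0.41 to 1.22. Organoids of the same letter deviated together, and with the letter as a block in a fit of the organoids alone the interval of Cdkn2a was 0.11 to 0.70 (unadjusted p = 0.0158 in limma), so that it was no exception there. No gene was called in that fit either, where the adjusted p of each of the 9 genes was 0.972 or higher. A test that misses its threshold does not show that the organoids are alike.

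By the probe set with the highest mean, the 2 genes with an unadjusted p under 0.05 without the block were both inhibitors, higher in organoids from yMaSCs. By probe set there were 4 of 16, among them a dimmer one of Ccng1, the gene of cyclin G1. It differed by 0.39 (95% interval 0.02 to 0.76, unadjusted p = 0.0418 in limma). With the block in organoids alone, both dimmer probe sets of Ccng1 were under 0.05 (unadjusted p = 0.0140 and 0.0425 in limma). With the block in organoids alone, the 2 genes were Cdkn2b (interval 0.29 to 0.80, unadjusted p = 0.00242 in limma) and Cdkn2a, and Cdkn1a was past that limit (-0.01 to 0.99, unadjusted p = 0.0524), while its other probe set was within it (0.25 to 1.09, unadjusted p = 0.00823). Cdkn2b differed by 0.54 (95% interval 0.12 to 0.97, unadjusted p = 0.0178 in limma), with 0.73, 0.34 and 0.56 between organoids of letters A, B and C. Cdkn1a differed by 0.49 (0.06 to 0.92, unadjusted p = 0.0286 in limma), with 0.32, 0.07 and 1.08 by letter, and by 0.67 (0.24 to 1.10) on its other probe set. The letter C pair gave most of the difference for Cdkn1a, since organoids C had the highest value among those from yMaSCs, 9.56, and the lowest among those from MaSCs, 8.48. The values of the organoids did not overlap for Cdkn1a, Cdkn2b and Ccng1. They overlapped for Cdkn1b, Cdkn1c, Cdkn2a, Cdkn2c, Mdm2 and Trp53inp1. How often the organoids were separate over all probe sets was not counted, so the separation for these genes is a description only. For Cdkn1c and Cdkn2c, with differences of 0.01 for Cdkn1c and -0.11 for Cdkn2c, the sign changed when single organoid arrays were left out.

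**Figure D3:**
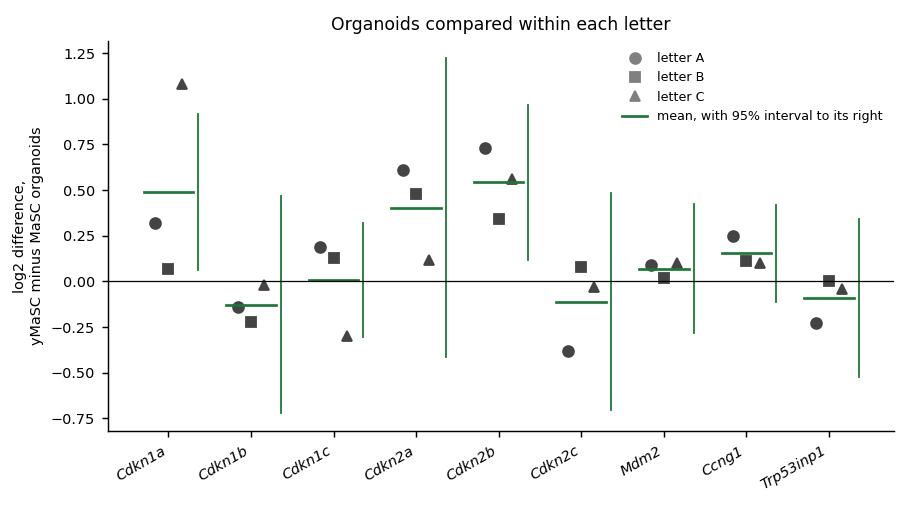
Log2 difference of organoids from yMaSCs minus organoids from MaSCs for each gene, with a point for each letter, a line at the mean and the 95% interval of the limma fit. All 3 letters lie above 0 for Cdkn1a, Cdkn2a, Cdkn2b, Mdm2 and Ccng1, and letter C lies highest for Cdkn1a at 1.08.

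The letters were then compared among the organoids. In a limma model of the 6 organoid arrays with the kind of organoid and the letter, 4.24% of all probe sets and 1 of the 9 genes were called for the letter. That gene was Cdkn2a (adjusted p = 0.0391), where B minus A was -0.65 and C minus A was -1.08 as means over both kinds. Its call was lost when any one of the 6 arrays was left out, as was that of every other probe set. Such a fit leaves a single array of that letter, so it cannot tell whether the call of Cdkn2a depends on the array left out. Organoids C minus organoids A gave -0.48 for Cdkn1b (adjusted p = 0.0939 in limma) and -0.42 for Cdkn2c (adjusted p = 0.0645), and neither was called. The letter C organoids also stood apart in genes of dividing cells. Mki67, a marker of cycling cells, measured 8.30 and 8.37 in organoids C from yMaSCs and from MaSCs, and between 4.88 and 5.39 in organoids A and B. The mean of 16 genes of dividing cells was 6.81 and 7.0 in organoids C and between 5.25 and 5.68 in organoids A and B. It was 7.70, 5.96 and 7.37 in LD cells A, B and C. Of these 16 genes 10 were called for the letter. Organoids C were also the highest of their kind in the mean of 11 basal markers. This mean was 9.26 in organoids C from yMaSCs and 9.91 in organoids C from MaSCs, and between 8.44 and 8.64 in organoids A and B. Of the 11 basal markers 3 were called for the letter. The part of cell division or of basal cells in the levels of the inhibitors was not tested. Without both organoids C the 9 genes were still called as 5 higher and 3 lower in each comparison with LD cells.

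**Figure D4:**
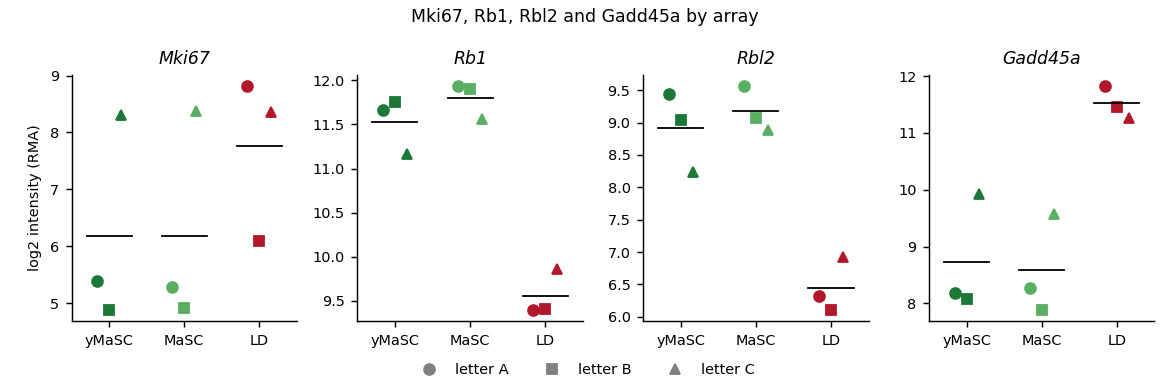
Log2 expression (RMA) by array of Mki67 (dividing cells), Rb1 and Rbl2 (retinoblastoma family) and Gadd45a (p53 target), with organoids left of LD cells, symbols for the letters and lines at the means, on scales that differ between panels. Mki67 lies above 8 in organoids C and below 6 in organoids A and B, while Rb1 and Rbl2 lie above all LD arrays in every organoid.

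Genes around these members were taken from lists chosen with earlier results of these data known, with 1 probe set a gene. Of 26 other p53 targets 23 were measured, and Bax, Gdf15 and Fdxr had no probe set of their own. In organoids from yMaSCs 8 were higher, 6 lower and 9 not called, with a median log2 difference of 0.07. In organoids from MaSCs 8 were higher, 7 lower and 8 not called, with a median of -0.02. Without both organoids C, 6 were higher in each comparison, with 6 lower in yMaSC organoids and 7 lower in MaSC organoids. Dram1, which promotes autophagy, had the largest difference of the 23, with 9.42, 9.28 and 10.40 in organoids from yMaSCs and 9.51, 9.62 and 10.65 in organoids from MaSCs, against 4.35, 4.98 and 3.74 in LD cells. This is a log2 difference of 5.34 ± 0.43 in yMaSC organoids (adjusted p = 3.65e-05) and 5.57 ± 0.43 in MaSC organoids (adjusted p = 2.77e-05). Gadd45a, a DNA damage and stress gene, measured 8.18, 8.07 and 9.92 in organoids from yMaSCs and 8.28, 7.88 and 9.58 in organoids from MaSCs, against 11.83, 11.46 and 11.27 in LD cells. It fell by 2.80 in yMaSC organoids (adjusted p = 0.0041) and by 2.94 in MaSC organoids (adjusted p = 0.00304) on the log2 scale, and organoids C were the highest organoids of each kind. Pmaip1, the gene of the death-promoting protein Noxa, fell by 2.84 in yMaSC organoids and fell by 2.80 in MaSC organoids. Plk2, a stress-responsive kinase gene, fell by 2.16 in yMaSC organoids and fell by 2.18 in MaSC organoids. Of the 23 targets 5 were called for the letter among organoids, beside 4.24% of all probe sets. These were Dram1, Gadd45a, Pmaip1 and Plk2, with C minus A between 1.06 and 1.52, and Btg2, with C minus A at -1.64. The increases beside Dram1 were of Phlda3, Zmat3, Xpc, Tigar, Ei24, Fas and Rrm2b, by between 0.68 and 1.41 over both kinds of organoid. The decreases beside Gadd45a, Pmaip1 and Plk2 were of Sesn2, Aen and Tnfrsf10b. In yMaSC organoids they were at -1.37 for Sesn2, -1.08 for Aen and -0.57 for Tnfrsf10b. In MaSC organoids they were at -1.45 for Sesn2, -1.32 for Aen and -0.47 for Tnfrsf10b, and Eda2r was called lower there alone, at -0.98. Among the genes that did not pass in either comparison were Bbc3, the gene of the death-promoting protein Puma (-0.45 in yMaSC organoids and -0.66 in MaSC organoids), and Sesn1 (-0.10 in yMaSC organoids and -0.11 in MaSC organoids).

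**Figure D5:**
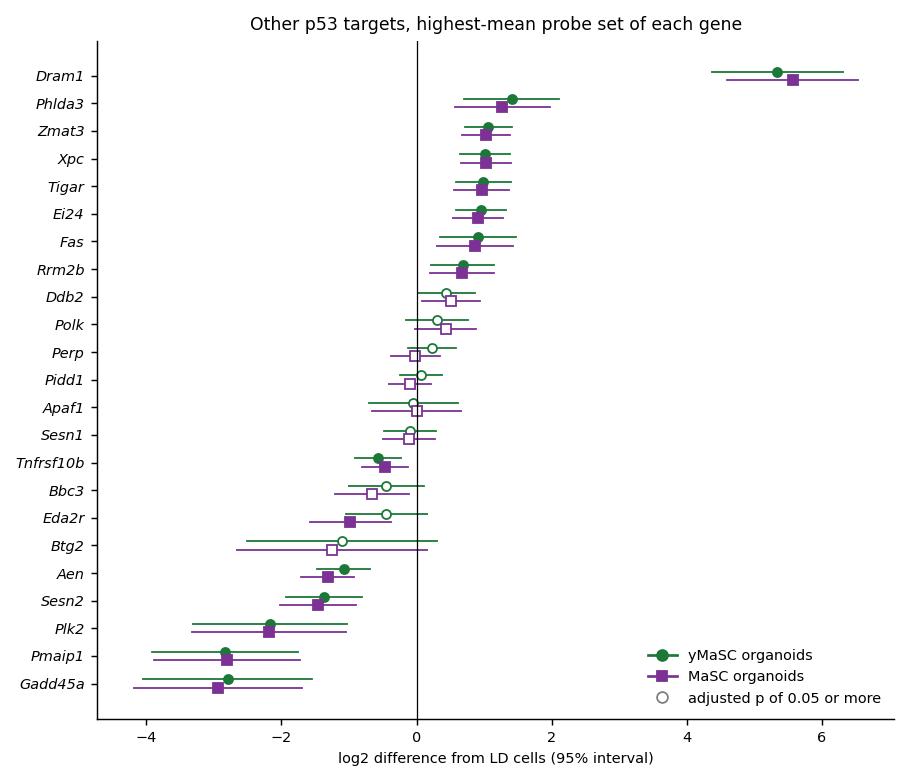
Log2 difference from LD cells, with 95% intervals from limma, of 23 other p53 targets, for organoids from yMaSCs (circles) above organoids from MaSCs (squares). Filled symbols passed at an adjusted p under 0.05. Dram1 lies above 5 and Gadd45a, Pmaip1 and Plk2 below -2, with the rest between.

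Among 15 regulators of p53, 6 were higher and 1 lower in each comparison, with a median log2 difference of -0.05 in yMaSC organoids and 0.12 in MaSC organoids. Chek2, a kinase of the DNA damage response, measured 6.84, 6.88 and 6.88 in organoids from yMaSCs and 6.91, 7.02 and 7.19 in organoids from MaSCs, against 4.30, 3.46 and 5.18 in LD cells, a difference of 2.55 in yMaSC organoids and 2.73 in MaSC organoids. In LD cells B the value of Chek2 lay below the lower quartile of that array, 3.59, and is a bound. Rchy1, a ubiquitin ligase of p53, was higher by 1.14 in yMaSC organoids and 1.10 in MaSC organoids. Atm, a kinase upstream of p53, was higher by 0.98 in yMaSC organoids and 1.07 in MaSC organoids. Ppm1d, a p53-induced phosphatase, was higher by 0.63 in yMaSC organoids (adjusted p = 0.0335) and 0.79 in MaSC organoids, and its call in organoids from yMaSCs was lost without organoids from yMaSCs A or B or LD cells A or B (adjusted p up to 0.116), with quantile normalization (0.0634) or cyclic loess (0.0573), and in a fit of the 2 groups alone (0.0686). The gene called lower was Usp7, a deubiquitinase of Mdm2 and p53 (-0.45 in yMaSC organoids and -0.40 in MaSC organoids). Without LD cells B, 4 of the 15 were higher in organoids from yMaSCs, and without both organoids C 2 were lower there. Of the p53 family, Trp63, which encodes the basal cell factor p63, measured between 8.66 and 8.96 in organoids from yMaSCs and between 8.57 and 9.34 in organoids from MaSCs, against 3.60 to 3.98 in LD cells, near the lower quartile, so its differences of 4.96 in yMaSC organoids and 4.99 in MaSC organoids are lower limits. Trp73 was not called, at 0.29 in yMaSC organoids (adjusted p = 0.407) and 0.56 in MaSC organoids (adjusted p = 0.109), and with the letter as a block it was called in organoids from MaSCs (adjusted p = 0.0458).

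Of 13 other CDK inhibitors and genes that control them, 4 were higher and 3 lower in organoids from yMaSCs (median log2 difference 0.47), and 3 were higher and 3 lower in organoids from MaSCs (median 0.43). Id1, a BMP-inducible repressor, measured 9.70, 9.04 and 7.56 in organoids from yMaSCs and 9.16, 9.13 and 7.75 in organoids from MaSCs, against 5.44, 6.27 and 5.72 in LD cells, a difference of 2.96 in yMaSC organoids and 2.87 in MaSC organoids. Both organoids C were the lowest of their kind. Myc, which represses Cdkn1a and Cdkn2b through the factor encoded by Zbtb17, measured 8.12, 7.94 and 9.01 in organoids from yMaSCs and 7.47, 7.79 and 8.21 in organoids from MaSCs, against 10.04, 10.49 and 10.09 in LD cells. Myc fell by 1.85 in yMaSC organoids and fell by 2.38 in MaSC organoids, and Zbtb17 fell by 0.94 in both. Cks2, a CDK-binding protein gene, fell by 1.45 in yMaSC organoids and fell by 1.46 in MaSC organoids. Skp2, which recruits p27 for degradation, was higher by 0.82 in yMaSC organoids and 0.73 in MaSC organoids. Cbx7, a Polycomb gene that represses Cdkn2a, was higher by 1.29 in yMaSC organoids (adjusted p = 0.0285) and 1.28 in MaSC organoids (adjusted p = 0.0291), and its call was lost without organoids A or B of the kind compared or LD cells A or C (adjusted p up to 0.104). Cdkn2d, the remaining INK4 gene, was at 0.67 in yMaSC organoids (adjusted p = 0.0473) and 0.63 in MaSC organoids (adjusted p = 0.0579).

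CDKs and cyclins are the targets of the inhibitors. Of 12 measured, 1 was higher and 0 were lower in each comparison (median log2 difference -0.19 in yMaSC organoids and -0.35 in MaSC organoids), and 7 were called for the letter among organoids. The one called was Ccnd3, the gene of cyclin D3, higher by 0.80 in yMaSC organoids (adjusted p = 0.0256) and 0.72 in MaSC organoids (adjusted p = 0.0391). Without LD cells B it was no longer called in either (adjusted p = 0.0604 in yMaSC organoids and 0.0985 in MaSC organoids). It was also lost in both without LD cells A or yMaSC organoids A or B (adjusted p up to 0.0903), and in MaSC organoids without their own A or B (adjusted p up to 0.135). In MaSC organoids it was lost as well with the letter as a block (0.0661), with quantile normalization (0.0535) or cyclic loess (0.0658), and in a fit of the 2 groups alone (0.0635). Without both organoids C, 1 was higher and 2 were lower in organoids from yMaSCs, and 1 was higher and 5 were lower in organoids from MaSCs. Among 13 genes of the RB and E2F families, 4 were higher and 2 lower in organoids from yMaSCs (median 0.05), and 5 were higher and 1 lower in organoids from MaSCs (median 0.10). Without LD cells B both counts were 3 higher and 3 lower, and without both organoids C both were 3 higher and 1 lower. Rbl2, the gene of p130, measured 9.45, 9.04 and 8.24 in organoids from yMaSCs and 9.57, 9.07 and 8.88 in organoids from MaSCs, against 6.32, 6.10 and 6.92 in LD cells, a difference of 2.46 in yMaSC organoids and 2.73 in MaSC organoids. Rb1, the retinoblastoma gene, measured 11.67, 11.75 and 11.17 in organoids from yMaSCs and 11.94, 11.90 and 11.56 in organoids from MaSCs, against 9.39, 9.40 and 9.86 in LD cells, a difference of 1.98 in yMaSC organoids and 2.25 in MaSC organoids. Tfdp2, a partner of E2F factors, was higher by 1.71 in yMaSC organoids and 1.70 in MaSC organoids. The repressor gene E2f8 was at -1.54 in yMaSC organoids (adjusted p = 0.0425) and -1.46 in MaSC organoids (adjusted p = 0.0505), with LD cells at 6.77, 4.53 and 5.85. The call of E2f8 in organoids from yMaSCs was lost without any single array other than organoids from MaSCs C and LD cells B (adjusted p up to 0.119), and also without both organoids C (0.0569), with cyclic loess (0.0519) and in a fit of the 2 groups alone (0.0663). E2f8 was called in organoids from MaSCs without their array C, without both organoids C or without LD cells B, with the letter as a fixed block (0.0381) or a random block (0.0400), with a common median (0.0460) and with arrayWeights (0.00389).

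Of 16 genes of dividing cells, 0 were higher and 4 lower in organoids from yMaSCs (median -1.10), and 0 were higher and 3 lower in organoids from MaSCs (median -1.08). Mcm5 was lower, at -1.87 in yMaSC organoids (adjusted p = 0.0137) and -1.75 in MaSC organoids (adjusted p = 0.018). Mcm6 was lower, at -1.09 in yMaSC organoids and -0.88 in MaSC organoids, and so was Pcna, at -0.62 in yMaSC organoids and -0.66 in MaSC organoids. Mcm2 was called in yMaSC organoids, at -0.82 (adjusted p = 0.0452), and not in MaSC organoids, at -0.75 (adjusted p = 0.0601). Mcm2, Mcm5, Mcm6 and Pcna serve DNA replication. Mcm5 was no longer called in organoids from yMaSCs without their array B or without LD cells A or C (adjusted p up to 0.0512), and in organoids from MaSCs without their array A or B or LD cells A or C (up to 0.0684). Mcm6 was no longer called in organoids from MaSCs without their array B or C or LD cells A or C (up to 0.0734). Mcm2 was no longer called in organoids from yMaSCs without any one of their arrays, organoids from MaSCs A or C, or LD cells A or C (up to 0.137), without both organoids C (0.0864), or in a fit of the 2 groups alone (0.0730). It was called in organoids from MaSCs without LD cells B, with the letter as a fixed block (0.0130) or a random block (0.0411), among probe sets above the median (0.0429), with quantile normalization (0.0291) or cyclic loess (0.0229), and with arrayWeights (0.0105). Without LD cells B, whose Mki67 was 6.09 beside 8.82 and 8.36 in LD cells A and C, 6 of the 16 were lower in organoids from yMaSCs and 5 in organoids from MaSCs. Without both organoids C, 10 were lower in organoids from yMaSCs and 11 in organoids from MaSCs.

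LD cells carried the luminal markers of their label, with means of 14.19 for Krt8 and 13.66 for Epcam, and the basal marker Trp63 near the lower quartile. Markers of cell types differed in the same comparisons. Of 11 luminal markers 2 were higher and 6 lower in each comparison, with Elf5 higher by 2.73 in yMaSC organoids and 2.78 in MaSC organoids and Esr1 lower, at -2.33 in yMaSC organoids and -2.13 in MaSC organoids. Of 11 basal markers 8 were higher and 0 lower, with Oxtr higher by 4.47 in yMaSC organoids and 4.78 in MaSC organoids. The mean of the basal markers was 8.59 to 9.26 in organoids from yMaSCs and 8.44 to 9.91 in organoids from MaSCs, against 6.07 to 6.36 in LD cells, and that of the luminal markers was 11.20 to 11.38 in yMaSC organoids and 11.14 to 11.52 in MaSC organoids, against 11.46 to 11.81 in LD cells. Of 8 immune markers 6 were lower in organoids from yMaSCs and 7 in organoids from MaSCs, and their mean was 4.12 to 4.55 in yMaSC organoids and 4.20 to 4.39 in MaSC organoids, against 5.51 to 6.15 in LD cells. Without LD cells B, 5 were lower in yMaSC organoids and 4 in MaSC organoids. Ptprc, the pan-leukocyte marker CD45, was below the lower quartile in all organoids (2.64 to 2.99) and between 8.17 and 8.94 in LD cells. Of 5 endothelial markers 1, Vwf, was lower in each comparison, with a mean over the 5 of 3.61 to 3.64 in yMaSC organoids and 3.53 to 3.54 in MaSC organoids, against 4.52 to 5.93 in LD cells. Of 6 fibroblast markers 1, Pdgfra, was higher and 3 were lower, with a mean of 5.11 to 5.34 in yMaSC organoids and 5.23 to 5.51 in MaSC organoids, against 6.18 to 7.93 in LD cells. Of 3 adipocyte markers 0 were called, with a mean of 2.98 to 3.13 in yMaSC organoids and 2.88 to 3.01 in MaSC organoids, against 3.45 to 5.94 in LD cells. In each comparison 1 of them was lower without LD cells B. The levels of these markers in LD cells were measured after the sort for EpCAM and against lineage antibodies. The part of RNA of these markers' cell types in the levels of Cdkn1a, Mdm2 and Trp53inp1 in LD cells was not tested. Without LD cells B the 9 genes were again called as 5 higher and 3 lower in each comparison.

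The genes whose values over the 9 arrays were most like those of each member are given as a description. The points share their arrays and fall into LD cells and organoids, so r gives the likeness over both together. By Pearson's r these were Snrpa1 (0.994) and Fam110c (0.991) for Cdkn1a, Abca1 and Etaa1 (both 0.997) for Cdkn1b, and Mrpl22 (0.950) and 4933402N03Rik (0.947) for Cdkn1c. For the INK4 genes they were Immt (0.993) and Rita1 (0.988) for Cdkn2a, Washc5 (0.981) and Lbh (0.974) for Cdkn2b, and Mgme1 (0.997) and Aldh6a1 (0.996) for Cdkn2c. For the genes around p53 they were Jmjd1c (0.989) and Phactr4 (0.984) for Mdm2, Gabarap (0.992) and Gpx4 (0.991) for Ccng1, and Arhgap21 (0.996) and Cdk5r1 (0.993) for Trp53inp1.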

How the data were processed

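The authors made log2 expression values by RMA, which corrects the background, quantile-normalizes the arrays and summarizes each probe set, and deposited them for 9 arrays (RMA in a version not given in the sources used here). No array of another sample was in the table (0 columns). The array annotation gave 34958 of 45101 probe sets a single gene, 932 several and 9211 none, and only the first were tested, with no filter on low values. With R 4.3.3 and limma 3.58.1, a model of the 3 groups with an empirical Bayes spread was fitted to the log2 values, and a second model with the kind of organoid and the letter to the 6 organoid arrays. Benjamini-Hochberg adjustment ran over all probe sets tested. Both fits were also run on simulated data in which arrays varied independently, unlike the organoids of the same letter here. That run checks the code and does not show how well either fit does on these arrays. Figures were drawn with matplotlib 3.10.9. The p-values measure the spread between these samples, and nothing read here says what samples of 1 letter share.

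Members and lists of genes were chosen with earlier results of these data known. Named were all members and, from each list, up to 4 called genes with the largest mean difference and every gene of the p53 family. Genes named beyond these (such as Usp7, Skp2, Cdkn2d, Zbtb17, Bbc3, Sesn1, the other p53 targets, Krt8, Epcam, Mki67 and Fabp4) were chosen after their values were seen. The 2 genes most like each member were found by Pearson's r. To see if the letters pair samples, deviations of arrays from their group means were correlated: organoids of the same letter gave r = 0.584, 0.560 and 0.635 for A, B and C, and LD cells and organoids of the same letter gave r between -0.065 and 0.0207. The letters thus pair the organoids and not the LD cells. The alternatives were the letter as a fixed or random block, 1 probe set a gene, probe sets above the median, a common median, quantile normalization, cyclic loess, arrayWeights, a prior with trend and robust estimation, fits of only the groups compared, each array left out in turn and both organoids C left out. Counts of the lists without LD cells B and without both organoids C were added after seeing the data. Promoters are RefSeq sequences of build GRCm38.p6.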

Additional observations from a re-analysis of the deposited data

How the results depend on the processing

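For organoids from yMaSCs and for organoids from MaSCs against LD cells, the 9 measured genes kept their direction and their side of the threshold under all 179 values computed for each comparison, and 8 genes were called each time, except among probe sets above the median, which leave Cdkn2a out and gave 7 in each comparison. With the letter as a replicate block over all arrays, 12807 probe sets were called in organoids from yMaSCs, against 12149 without it, and 13173 in organoids from MaSCs, against 12545 without it, and the block changed no call of a member. With 1 probe set a gene, 6531 were called in organoids from yMaSCs and 6791 in organoids from MaSCs, because fewer probe sets were tested. Between the organoids 0 genes were called under every alternative, block included, with 295 probe sets at an unadjusted p under 0.05 with the block over all arrays and 1174 with the block in organoids alone. Signs that changed there were of values that were not called. For Cdkn1c, 0.01 in all arrays, the range when single arrays were left out was -0.073 to 0.085, with -0.073 without organoids from yMaSCs A, and -0.005 and -0.06 without organoids from MaSCs A and B. For Cdkn2c, -0.11 in all arrays, it was -0.37 to 0.078, with 0.078 without organoids from yMaSCs C and 0.052 without organoids from MaSCs B. For the letter among organoids, 1 member was called of 1482 probe sets in all. It was 0 among probe sets above the median, which leave Cdkn2a out, and 3 of 2322 with a trended and robust prior, where Cdkn1b (adjusted p = 0.0455) and Cdkn2c (adjusted p = 0.0378) were added. With any one organoid array left out, 0 members and 0 probe sets in all were called by limma. Signal over background limits Cdkn2a in LD cells and the dimmest probe set of Mdm2, and 3 arrays a group limit all intervals.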
